A study of Mus musculus with 12 samples.

Results

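The serpins are protease inhibitors. A serpin offers a flexible loop as bait, the protease cuts it, and the serpin then snaps into a new fold that traps the enzyme in a dead complex. Family members that circulate in plasma restrain clotting, fibrinolysis, complement and the proteases of neutrophils, members of clade B mostly work inside cells, and a few have lost the inhibitory role and carry hormones or fold collagen. Most plasma serpins are made chiefly in the liver, and some are also transcribed in the tubules of the kidney.

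The family was defined here as the protein-coding genes whose symbol begins with Serpin followed by a clade letter from a to i. This gave 61 of the 52636 genes in the expression table, on 11 chromosomes, with 23 members on chromosome 12, 15 on chromosome 13 and 13 on chromosome 1. Values are FPKM, fragments per kilobase of gene scaled to a total set for each library, so levels can be compared between genes. Of the 61 members 20 reached 1 FPKM in at least 3 of 12 libraries and were tested, and 41 did not.

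RNA was measured in whole kidneys of male C57BL/6 wild type mice of 8 weeks, in 4 groups of 3 libraries. Control mice received corn oil and saline, PCN mice received saline and 40 mg/kg per day by mouth of pregnenolone carbonitrile (PCN), a steroid agonist of the mouse pregnane X receptor, cisplatin mice received corn oil and 20 mg/kg of the tubule-damaging platinum drug cisplatin in 1 intraperitoneal injection, and cisplatin+PCN mice received both drugs. Gavage with PCN or oil covered the 4 days up to the injection and the 3 days after it, and kidneys were collected 4 days after the injection. The treatment text lists the cisplatin group both with the mice pretreated with PCN and with those given oil; the groups are used here as the library titles state them. Nothing says that each library came from a separate animal, so p-values measure the spread among these libraries, which may be technical.

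The libraries held 18914607 to 26530485 reads assigned to genes. On the first principal component, which held 80.2% of the variance, the control and PCN libraries lay between -44.9 and -42.1, the cisplatin libraries between 51.2 and 62.6, and cisplatin+PCN replicates 1, 2 and 3 at 21.9, 40.7 and 29.3. The summed level of 6 proximal tubule markers was 2972 to 3223 FPKM in control and PCN libraries, 135 to 217 with cisplatin, and 667, 199 and 445 in cisplatin+PCN replicates 1 to 3. Adipocyte markers (7 genes) stood apart in control replicate 1 (106.5 FPKM) and PCN replicate 1 (184.3), against 16.1 to 84.3 FPKM in the other libraries. In whole tissue, fewer cells of a type and less RNA per cell cannot be told apart.

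On chromosome 12 the 5 neighbouring genes Serpina1a to Serpina1e encode forms of alpha-1-antitrypsin, a plasma serpin. They are near copies, so their reads can be shared. Transcripts of the other 4 were identical to Serpina1d at 96.3% to 96.5% of aligned bases, and 50.9% of the 50-base windows of Serpina1d also occur in another gene, as do 67.4% of those of Serpina1a, 35.8% of Serpina1b, 74.2% of Serpina1c and 35.6% of Serpina1e. For 100-base windows the shares run from 14.8% (Serpina1e) to 58.5% (Serpina1c). The 60 bases in which the copies differ most, in the coding part of the last exon, are shown because only reads over positions that differ tell the copies apart. Capitals mark the 18 positions at which any of the 5 differ (GENCODE M21 transcripts, GRCm38, minus strand, 5′ to 3′).
Serpina1d, chr12:103763762-103763821: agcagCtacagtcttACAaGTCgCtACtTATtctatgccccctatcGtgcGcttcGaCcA
Serpina1a, chr12:103853757-103853816: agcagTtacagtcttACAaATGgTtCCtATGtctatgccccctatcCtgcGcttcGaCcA
Serpina1b, chr12:103728324-103728383: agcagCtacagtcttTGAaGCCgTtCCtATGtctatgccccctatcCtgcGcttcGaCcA
Serpina1c, chr12:103895094-103895153: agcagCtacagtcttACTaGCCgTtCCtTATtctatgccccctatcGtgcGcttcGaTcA
Serpina1e, chr12:103947100-103947159: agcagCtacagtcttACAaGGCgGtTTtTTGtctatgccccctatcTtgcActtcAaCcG
Within this stretch Serpina1d differed from Serpina1c at 5 positions, from Serpina1a and Serpina1b at 9 each, and from Serpina1e at 10. The split of reads among the copies is therefore uncertain, and the sum over all 5 is given beside the single genes; how shared reads were counted is not stated, and the sum was not recomputed under another split.

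A second group on chromosome 12, the 10 protein-coding Serpina3 genes, descends from the gene for alpha-1-antichymotrypsin. These copies have diverged further: 6.90% of the 50-base windows of Serpina3n occur in another gene, 16.0% of those of Serpina3g and 19.1% of those of Serpina3m. Serpina3n, Serpina3g and Serpina3i are among those with a promoter entry in RefSeq (GRCm38.p6, from 250 bases before to 50 after the start site). The stretch of 36 bases beginning at the TTCNNNGAA match of Serpina3g (of the kind STAT factors bind) is shown with its best ungapped match in the promoters of Serpina3i and Serpina3n. Serpina3i holds the same letters, and Serpina3n is shown as the gene with the largest rise. The remaining Serpina3 promoters were not aligned to this stretch, and how well unrelated promoters match it was not taken. Capitals mark the 9 letters of the match or those aligned with it (plus strand).
Serpina3g, chr12:104236114-104236149: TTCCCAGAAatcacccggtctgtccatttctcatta
Serpina3i, chr12:104263020-104263055: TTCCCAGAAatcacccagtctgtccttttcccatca
Serpina3n, chr12:104406585-104406620: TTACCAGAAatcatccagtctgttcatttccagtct
Serpina3i matched Serpina3g at 32 of the 36 bases and Serpina3n at 27. In Serpina3n the aligned letters carry C3A, counted from the first capital with the base of Serpina3g first, and do not match the motif. Of the other Serpina3 promoters, that of Serpina3f holds a different match, TTCCTAGAA, and that of Serpina3c holds none. The stretches shown begin 33, 102 and 123 bases before the start sites of Serpina3g, Serpina3i and Serpina3n.

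**Figure D1:**
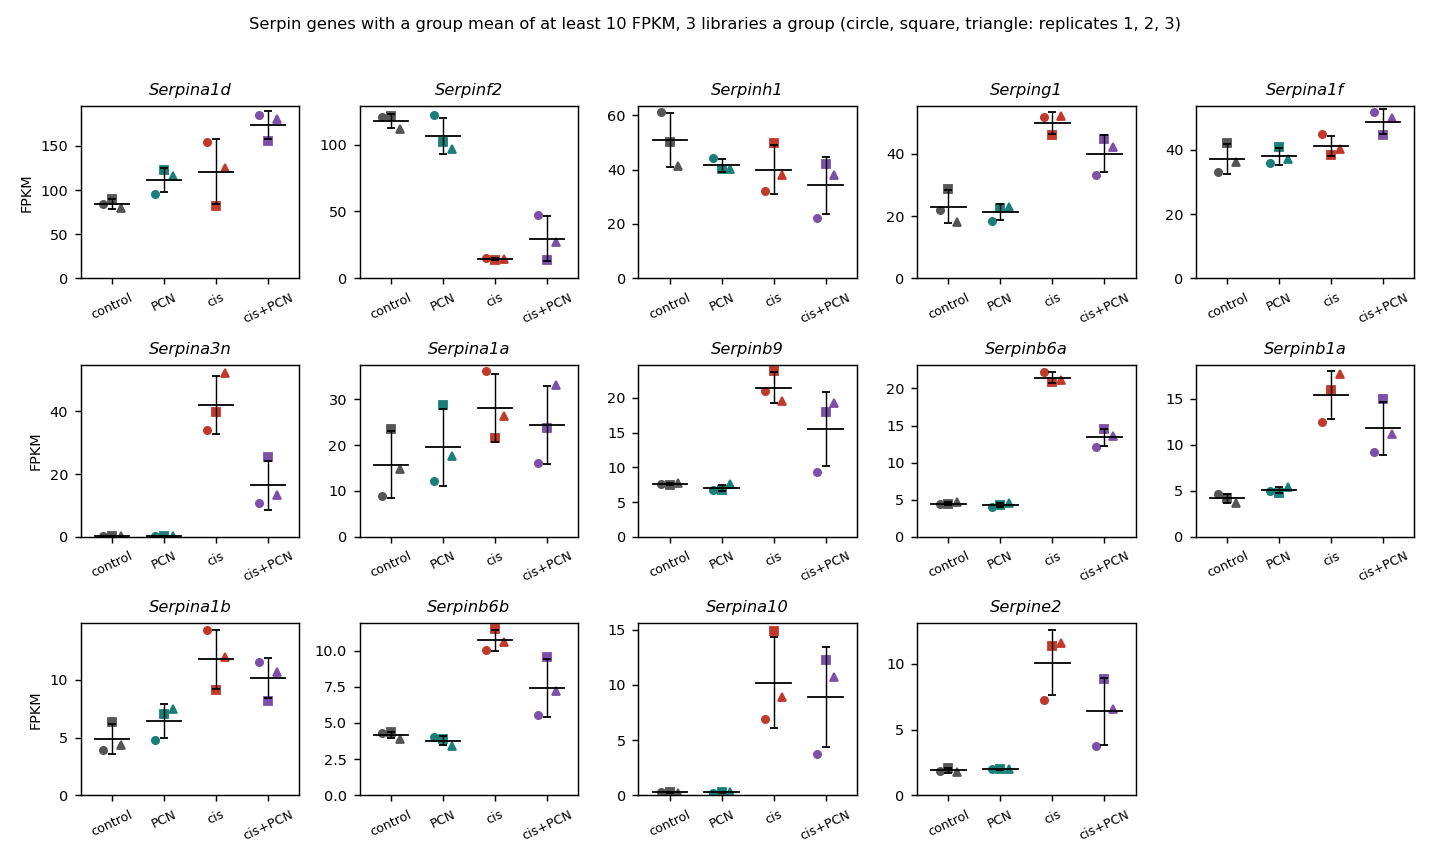
FPKM (vertical axes, each from 0) in each library for 14 Serpin genes with a group mean of at least 10 FPKM in some group, by group (horizontal axes); circles, squares and triangles are replicates 1, 2 and 3, horizontal lines are means and bars are ± SD (n = 3). Serpina3n and Serpina10 lie near 0 in control and PCN libraries, Serpinf2 lies high there and low with cisplatin, and the cisplatin+PCN libraries of Serpinf2 range from 13.8 to 47.4 FPKM.

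With cisplatin, 13 of the 20 tested Serpin genes rose and 1 fell. The largest rise was in Serpina3n, and the fall was in Serpinf2. The count stands against a wide response of the tissue: in limma's test at an adjusted p under 0.05, 32.0% of all 13540 genes tested were higher with cisplatin and 31.9% lower (63.9% in either direction). The count is not one over the whole family: 7 members, among them Serpina3n, Serpina10, Serpina3g, Serpina3m, Serpina7 and Serpina1c, were tested only because libraries with cisplatin passed the minimum, and 6 of these 7 rose. Of the 13 members that passed it on control and PCN libraries alone, 7 rose, 1 fell and 5 were not called. Their median change was 1.11 on the log2(FPKM + 1) scale. All tested genes, which were filtered on all 12 libraries, had a median of 0.01. The share called and the median were not taken for all genes that pass on control and PCN libraries alone, so these 13 members have no like background. In 13 members every cisplatin library lay above every control library and in 2 below, where 67.7% of all tested genes did not overlap. The 14 calls held without any single library and under each alternative setting that tested the gene (a mean of at least 5 FPKM leaves out Serpina10, Serpina3g, Serpina3m and Serpina7).

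**Figure D2:**
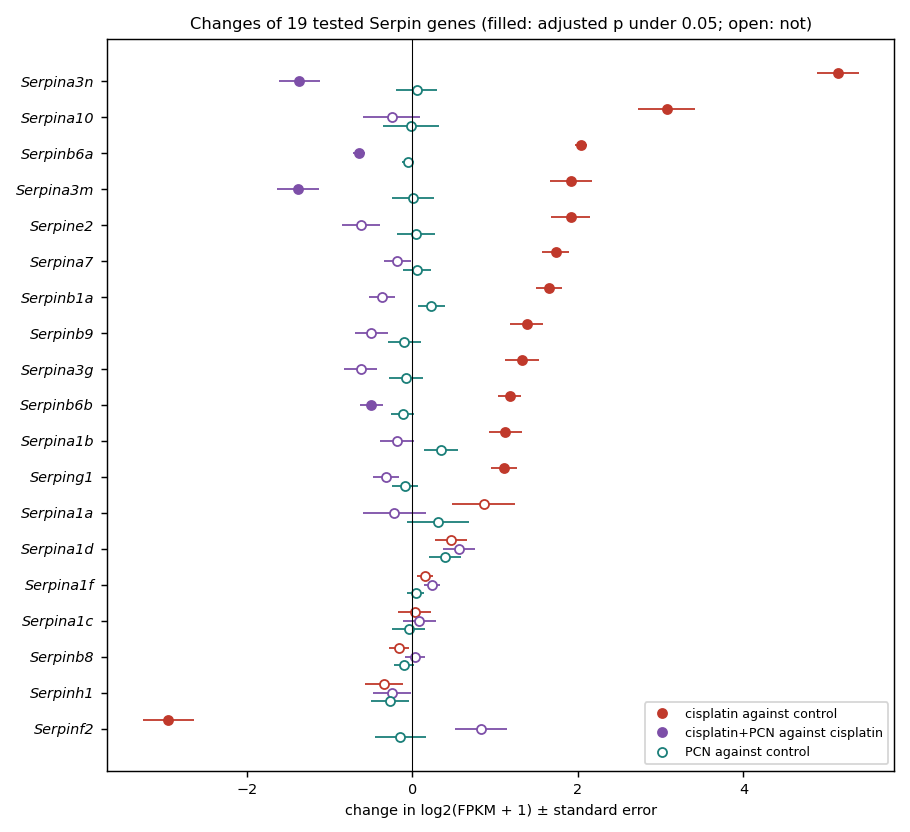
Change in log2(FPKM + 1) ± standard error (horizontal axis) for 19 of the 20 tested Serpin genes (rows) in 3 comparisons; filled points passed limma's test at an adjusted p under 0.05 and open points did not. Changes with cisplatin run from -2.95 for Serpinf2 to 5.14 for Serpina3n, those with PCN alone lie between -0.27 and 0.39 with none filled, and 4 of the genes shown are filled and negative for cisplatin+PCN against cisplatin.

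Serpina3n (chromosome 12, from 104406729 to 104414329, plus strand), a secreted inhibitor of chymotrypsin-like and other serine proteases and an acute-phase gene in the mouse, had the largest rise. It measured 0.155, 0.234 and 0.217 FPKM in control, 0.296, 0.0987 and 0.359 with PCN, 34.1, 39.9 and 52.3 with cisplatin, and 10.9, 25.4 and 13.2 with cisplatin+PCN. The 4 groups fall in 3 levels without overlap, with control and PCN together at the bottom and cisplatin at the top. The change with cisplatin was 5.14 ± 0.25 (log2, SE; limma adjusted p = 7.00e-08).

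Serpina3m and Serpina3g rose with it. Serpina3m (chromosome 12, from 104338486 to 104394257) had 0, 1 and 0 reads in control, 0, 0 and 1 with PCN, 97, 62 and 212 with cisplatin (3.01 ± 1.48 FPKM, SD, n = 3) and 11, 45 and 10 with cisplatin+PCN (0.504 ± 0.454 FPKM). Cisplatin libraries thus lay above all others, and the fitted change of 1.92 ± 0.25 depends on the pseudocount of 1 because control was at the detection limit. Serpina3g (chromosome 12, from 104236245 to 104241939), an intracellular inhibitor described in lymphocytes, rose by 1.32 ± 0.20 from 0.918 ± 0.250 to 3.90 ± 1.44 FPKM. Of the 7 untested Serpina3 genes, Serpina3i was listed at 0 in all control and PCN libraries and stood at 0.397, 0.370 and 0.875 FPKM with cisplatin, and Serpina3a had no read in any library.

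Summed over the 10 genes, the Serpina3 level was 1.80 ± 0.244 FPKM in control, 1.42 ± 0.220 with PCN, 50.4 ± 12.2 with cisplatin and 19.9 ± 8.95 with cisplatin+PCN (SD, n = 3). The make-up of the sum moved as well as its size: Serpina3g held 50.9% of it in control and 7.75% with cisplatin, and Serpina3n held 11.2% and 83.6%. Neutrophil markers (9 genes, of which Mpo was at 0 in control, PCN, cisplatin and cisplatin+PCN alike) summed to 2.81 to 4.12 FPKM in control, 21.8 to 35.1 with cisplatin and 10.5, 28.9 and 4.76 in cisplatin+PCN replicates 1 to 3. Their part in the Serpina3 change was not tested.

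Serpina1d (chromosome 12, from 103763594 to 103773592, minus strand) was the most abundant clade A member in each group. It measured 84.1, 90.1 and 79.2 FPKM in control, 95.7, 122 and 116 with PCN, 155, 81.7 and 126 with cisplatin, and 185, 155 and 181 with cisplatin+PCN. With cisplatin 2 libraries stood above control and replicate 2 stood within it, and the change of 0.46 ± 0.19 was not called (limma adjusted p = 0.0536). Without cisplatin replicate 2 the change was 0.72 (limma adjusted p = 0.000938). With cisplatin+PCN against control Serpina1d rose by 1.03 ± 0.19 (limma adjusted p = 0.00131), and the groups did not overlap.

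The sum of Serpina1a to Serpina1e was 97.8, 122 and 101 FPKM in control, 114, 159 and 143 with PCN, 207, 113 and 165 with cisplatin, and 214, 189 and 225 with cisplatin+PCN. Each cisplatin+PCN library lay above each control and PCN library, while cisplatin overlapped every other group. Serpina1d made up 79.1% of the sum in control, 80.3% with PCN, 74.6% with cisplatin and 82.8% with cisplatin+PCN.

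**Figure D3:**
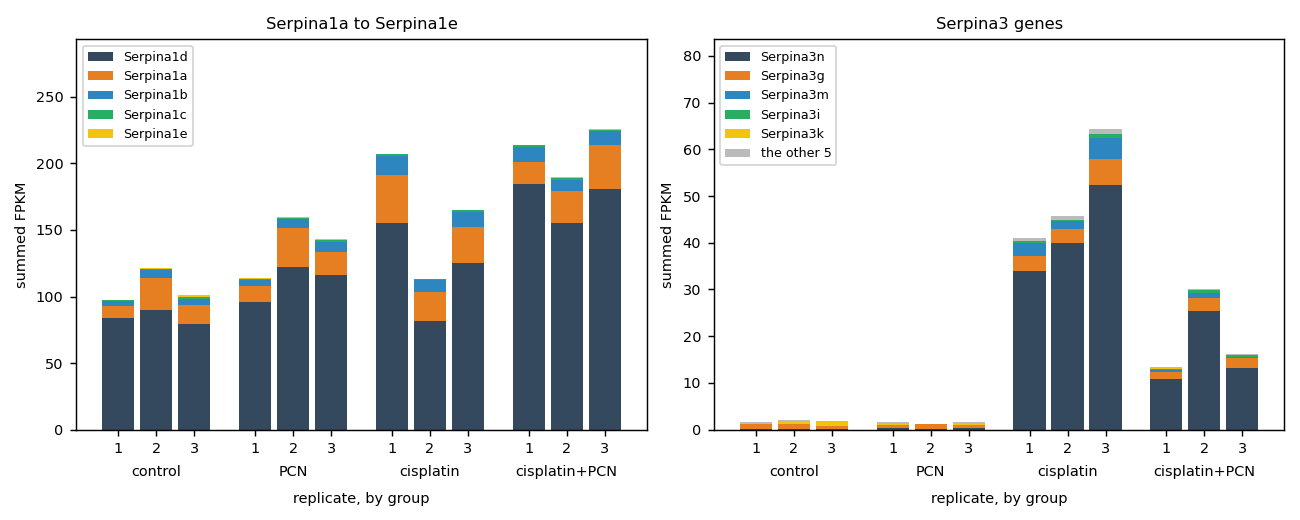
Summed FPKM per library (vertical axes) of the 5 Serpina1 copies and of the 10 Serpina3 genes, by group and replicate (horizontal axes); each stacked bar is a library, and its colours are the shares of the single genes. The Serpina1 sum is at least 189 in the cisplatin+PCN libraries and at most 159 in control and PCN, and the Serpina3 sum is at most 2.05 in control and at least 41.1 with cisplatin.

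Among the less abundant copies, Serpina1b measured 3.92, 6.34 and 4.39 FPKM in control, 4.78, 7.06 and 7.47 with PCN, 14.3, 9.16 and 11.96 with cisplatin and 11.5, 8.21 and 10.7 with cisplatin+PCN. Its libraries with cisplatin lay above those without, and it rose by 1.12 ± 0.20 with cisplatin (limma adjusted p = 0.000635). Serpina1a measured 8.93, 23.5 and 14.8 FPKM in control, 12.2, 28.8 and 17.5 with PCN, 36.2, 21.6 and 26.3 with cisplatin and 16.2, 23.8 and 33.2 with cisplatin+PCN, and its groups overlapped throughout (change with cisplatin 0.86 ± 0.38, limma adjusted p = 0.0665). Serpina1a was called without control replicate 2 (1.18, limma adjusted p = 0.0220) and after rescaling to recovered reads (0.95, limma adjusted p = 0.0495). Serpina1c stayed near 1 FPKM and was not called in any comparison. Serpina1e was under the minimum, at 0.781 ± 0.487 FPKM in control and 0.231 ± 0.0557 with cisplatin. It was lowest in control replicate 1 (0.231 against 0.949 and 1.161), as was the liver gene Alb (1.92 against 7.88 and 6.34 FPKM). The 8 liver markers summed to 24.2, 40.5 and 41.3 FPKM in control and 30.9 to 41.8 with cisplatin, most of it Apob, and Cyp7a1 was at 0 in control, PCN and cisplatin libraries; their part in the Serpina1 levels was not tested.

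Serpina1f (chromosome 12, from 103688044 to 103695529) shares no 50-base window with another gene, despite its name. It measured 33.05, 42.1 and 36.2 FPKM in control, 35.9, 40.9 and 37.2 with PCN, 44.8, 38.5 and 40.2 with cisplatin and 51.9, 44.5 and 49.8 with cisplatin+PCN. Cisplatin alone overlapped control (0.15 ± 0.10, limma adjusted p = 0.210), and cisplatin+PCN lay above it (0.39 ± 0.10, adjusted p = 0.00861). Serpina1d and Serpina1f were called against control with both drugs and not with cisplatin alone, though after rescaling to recovered reads cisplatin alone passed as well (Serpina1d 0.55, limma adjusted p = 0.0152; Serpina1f 0.24, limma adjusted p = 0.0325). Serpina1d also passed with limma-voom (limma adjusted p = 0.0404) and among genes with a mean of at least 5 FPKM (0.0497). With both drugs against cisplatin alone, neither passed the threshold (adjusted p = 0.0689 and 0.126 in limma's test).

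The last 2 tested clade A genes were almost silent without cisplatin. Serpina10 (chromosome 12, from 103614786 to 103631444), the protein Z-dependent inhibitor of coagulation factor X, measured 0.336, 0.288 and 0.205 FPKM in control, 0.212, 0.277 and 0.291 with PCN, 6.88, 14.9 and 8.89 with cisplatin and 3.73, 12.2 and 10.7 with cisplatin+PCN. Both groups given cisplatin stood clear of both groups that were not, and they overlapped each other. Serpina10 rose by 3.07 ± 0.34 with cisplatin (limma adjusted p = 1.87e-05). Serpina7 (chromosome X, from 139079257 to 139085236), which encodes thyroxine-binding globulin and is a hormone carrier rather than an inhibitor, had 0, 0 and 1 reads in control, 2, 1 and 4 with PCN, 108, 153 and 137 with cisplatin and 74, 125 and 176 with cisplatin+PCN. Its level reached 2.35 ± 0.330 FPKM with cisplatin and 2.02 ± 0.819 with both drugs.

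Among serpins of coagulation and fibrinolysis, Serpine2 rose with cisplatin and Serpinf2 fell. Serpine2 (chromosome 1, from 79794197 to 79861180), protease nexin 1, which inhibits thrombin and plasminogen activators, measured 1.82, 2.10 and 1.75 FPKM in control, 1.97, 1.98 and 1.96 with PCN, 7.21, 11.4 and 11.6 with cisplatin and 3.73, 8.83 and 6.59 with cisplatin+PCN. Both groups given cisplatin lay above control and PCN, and the rise with cisplatin was 1.91 ± 0.23 (limma adjusted p = 3.43e-05).

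Serpinf2 (chromosome 11, from 75431732 to 75439591) encodes alpha-2-antiplasmin, the direct inhibitor of plasmin, and was the most abundant Serpin gene in control kidney. It measured 121, 121 and 112 FPKM in control, 122, 102 and 96.5 with PCN, 15.1, 13.7 and 14.3 with cisplatin and 47.4, 13.8 and 27.4 with cisplatin+PCN. Serpinf2 fell by 2.95 ± 0.31 with cisplatin (log2, SE; limma adjusted p = 1.28e-05). The 3 cisplatin libraries were close together, whereas with both drugs replicate 2 stood at the cisplatin level and replicate 1 above it. The proximal tubule markers stood in that order too (667, 199 and 445 FPKM in cisplatin+PCN replicates 1 to 3), and their part in the Serpinf2 change was not tested. The change between cisplatin+PCN and cisplatin, 0.83 ± 0.31, was not called (limma adjusted p = 0.0930), but was without cisplatin+PCN replicate 2 (1.27, adjusted p = 0.00298).

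Serping1 (chromosome 2, from 84765387 to 84775444), the C1 inhibitor of complement and of the contact system, measured 22.1, 28.7 and 18.3 FPKM in control, 18.4, 22.5 and 23.0 with PCN, 52.1, 45.9 and 52.1 with cisplatin and 33.3, 45.0 and 42.1 with cisplatin+PCN. The libraries with cisplatin, with or without PCN, all lay above those without it, and Serping1 rose by 1.11 ± 0.16 (limma adjusted p = 0.000118). Serpinh1 (chromosome 7, from 99345376 to 99353239) encodes HSP47, a collagen chaperone of the endoplasmic reticulum that inhibits no protease. It measured 61.4, 50.1 and 41.4 FPKM in control, 44.2, 40.3 and 40.2 with PCN, 32.1, 49.9 and 37.8 with cisplatin and 22.3, 42.2 and 38.1 with cisplatin+PCN, with overlap between cisplatin and control (-0.35 ± 0.23, limma adjusted p = 0.205). Its collagen clients Col4a1, Col3a1 and Col1a2 rose with cisplatin (by 1.74, 1.03 and 0.73). Col1a1 changed by 0.89 ± 0.37 and was just over the threshold (limma adjusted p = 0.0538).

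The products of clade B genes mostly act inside cells. Serpinb6a (chromosome 13, from 33917918 to 34002794), an inhibitor of cathepsin G and trypsin-like proteases, measured 4.36, 4.36 and 4.70 FPKM in control, 3.98, 4.31 and 4.58 with PCN, 22.3, 20.9 and 21.1 with cisplatin and 12.1, 14.5 and 13.6 with cisplatin+PCN. Its highest cisplatin library was 1.07-fold its lowest, and it rose by 2.03 ± 0.07 (limma adjusted p = 1.31e-08). Of its exonic bases 29.3% overlap genes of the opposite strand (Nqo2, Ripk1 and 1110046J04Rik), and the sources used here do not say whether counting used strand. From control to cisplatin Nqo2 went from 8.44 to 5.79 FPKM, Ripk1 from 4.40 to 3.97 and 1110046J04Rik from 0.111 to 0.448; the part of their reads in the Serpinb6a values was not tested.

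The clade B genes Serpinb1a, Serpinb9 and Serpinb6b rose too. Serpinb1a (chromosome 13, from 32842092 to 32851185), an inhibitor of neutrophil elastase, cathepsin G and proteinase 3, measured 4.69, 4.19 and 3.65 FPKM in control, 5.01, 4.75 and 5.40 with PCN, 12.5, 15.9 and 17.6 with cisplatin and 9.26, 15.0 and 11.2 with cisplatin+PCN. Serpinb9 (chromosome 13, from 33003250 to 33017957), the inhibitor of granzyme B, measured 7.54, 7.47 and 7.76 FPKM in control, 6.78, 6.75 and 7.55 with PCN, 20.9, 23.9 and 19.5 with cisplatin and 9.39, 18.0 and 19.3 with cisplatin+PCN. Serpinb6b (chromosome 13, from 32965209 to 32979067), a close relative of Serpinb6a, measured 4.28, 4.34 and 3.91 FPKM in control, 4.00, 3.89 and 3.44 with PCN, 10.1, 11.5 and 10.6 with cisplatin and 5.52, 9.53 and 7.23 with cisplatin+PCN. In all 3 genes the cisplatin libraries stood clear of control and PCN, with rises of 1.65 ± 0.16 for Serpinb1a, 1.38 ± 0.20 for Serpinb9 and 1.18 ± 0.14 for Serpinb6b (adjusted p = 6.32e-06, 0.000127 and 2.91e-05 in limma's test). Serpinb8, an inhibitor of furin, was not called (2.06 ± 0.172 FPKM in control and 1.73 ± 0.281 with cisplatin). The macrophage markers (8 genes) summed to 81.8 to 99.8 FPKM in control and 94.4 to 138.9 with cisplatin, the neutrophil markers to 2.81 to 4.12 and 21.8 to 35.1, and their part in the clade B changes was not tested.

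The 41 untested members gave at most 1.92 FPKM in any library. Of these, 10 had no read in any library, among them Serpina12, Serpini2, Serpinb13 and the 4 Serpinb3 genes, and a count of 0 allows up to 3 reads a library, and 23 more had under 100 reads in all 12 libraries together. Serpinb9b, a relative of Serpinb9, was listed at 0 in the control and PCN libraries and measured 0.403, 0.956 and 1.92 FPKM with cisplatin and 0.0475, 0.774 and 0.212 with both drugs. Serpinc1, antithrombin, the main plasma inhibitor of thrombin, measured 0.206, 0.200 and 0.277 FPKM in control and 0.0365, 0.0659 and 0.0773 with cisplatin; its exons overlap those of Zbtb37 on the opposite strand by 2942 bases. Serpind1, heparin cofactor II, Serpina5, the protein C inhibitor, and Serpina6, the corticosteroid carrier, stayed under 0.2 FPKM in each library.

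PCN alone changed no member by the test. All 20 adjusted p-values were 1 in limma's test, no member had an unadjusted p under 0.05, and 0% of the 13540 genes were called (438 had an unadjusted p under 0.05). With limma-voom on recovered reads the count of members was again 0. Differences from control ran from -0.27 ± 0.23 for Serpinh1 to 0.39 ± 0.19 for Serpina1d. In Serpina1d, Serpinb1a and Serpina7 the PCN libraries lay above every control library, and 13.3% of all tested genes did not overlap in this comparison. A p above the threshold does not show that the levels were equal.

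With cisplatin+PCN against cisplatin, 5 of 20 members were lower and none was higher, where 7.61% of all tested genes were lower and 7.97% higher (15.6% in either direction). Among them were Serpinb6a (-0.64 ± 0.07, adjusted p = 0.00204), Serpina3n (-1.37 ± 0.25, adjusted p = 0.0102), Serpina3m (-1.38 ± 0.25, adjusted p = 0.0105) and Serpinb6b (-0.50 ± 0.14, adjusted p = 0.0367), all in limma's test. Serpina3n and Serpina3m were tested only because libraries with cisplatin passed the minimum, so the count is not one over the whole family. All 5 calls ended when only the 6 libraries of these groups were fitted, with adjusted p of 0.111 for Serpinb6a, 0.119 for Serpina3n and Serpina3m and 0.173 for Serpinb6b. The Serpinb6b call ended without any 1 of 11 of the 12 libraries, with adjusted p up to 0.0974. Without cisplatin+PCN replicate 2, 9 members were called, and the share of all tested genes called in that fit was not taken.

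Apart from the test, in 7 members every cisplatin+PCN library lay below every cisplatin library (Serpina3n, Serpina3m, Serpina3g, Serpinb6a, Serpinb6b, Serpinb9 and Serping1) and in Serpina1d each lay above, where 29.4% of all tested genes did not overlap. For Serpina1d the margin was narrow, 155.4 FPKM in cisplatin+PCN replicate 2 against 155.0 in cisplatin replicate 1. Serpina3n, Serpina3m and Serpina3g passed the minimum only through libraries with cisplatin. Serpina10 (-0.25 ± 0.34) and Serpina7 (-0.18 ± 0.17) were among the 15 members not called. Against PCN, the comparison with the same steroid in both groups, cisplatin+PCN gave 14 members higher and 1 lower, where 23.5% of all tested genes were higher and 23.4% lower (46.9% in either direction). Against control it also gave 14 higher and 1 lower, where 23.0% were higher and 23.6% lower (46.6%). In both comparisons the 14 hold Serpina3n, Serpina10, Serpina3g and Serpina7, which were tested only because libraries with cisplatin passed the minimum. These counts, and those without overlap, are therefore not counts over the whole family. In 15 members the cisplatin+PCN libraries lay above and in 1 below, both against PCN, where 59.3% of all tested genes did not overlap, and against control, where 57.5% did not. The 14 included Serpina1d and Serpina1f and left out Serpina3m (0.54 ± 0.25 against control, limma adjusted p = 0.106), which was called at a pseudocount of 0.1 (2.24, limma adjusted p = 0.00818). Against PCN, the calls of Serpina1d (0.64 ± 0.19) and Serpina1f (0.35 ± 0.10) ended without PCN replicate 1 (limma adjusted p = 0.0710 and 0.0554), that of Serpina1d also without cisplatin+PCN replicate 3 (0.0532), and that of Serpina1b (0.59 ± 0.20) without PCN replicate 1 or cisplatin+PCN replicate 1 or 3 (0.133, 0.0990 and 0.0898). Against control, Serpina3g (0.70 ± 0.20) lost its call without control replicate 3 or cisplatin+PCN replicate 2 (0.0620 and 0.0636).

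No member passed the test of the interaction, which asks whether the cisplatin change differed with PCN, and 0.111% of all tested genes did (0.0739% higher and 0.0369% lower). An unadjusted p under 0.05 in limma's test was found for 6 of the 20 members and for 2617 of all 13540 tested genes. With limma-voom on recovered reads 0 members were called. The smallest adjusted p was 0.0710, for Serpinb6a (-0.59 ± 0.10 in limma's test), and Serpina3n (-1.42 ± 0.35) and Serpina3m (-1.38 ± 0.36) followed at 0.110 and 0.117. Without cisplatin+PCN replicate 2, 5 members were called, among them Serpina3n (-1.76), Serpinf2 (1.42), Serpinb6a and Serpina3m. The share of all tested genes called without that library was not taken, so these calls have no background beside them.

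**Figure D4:**
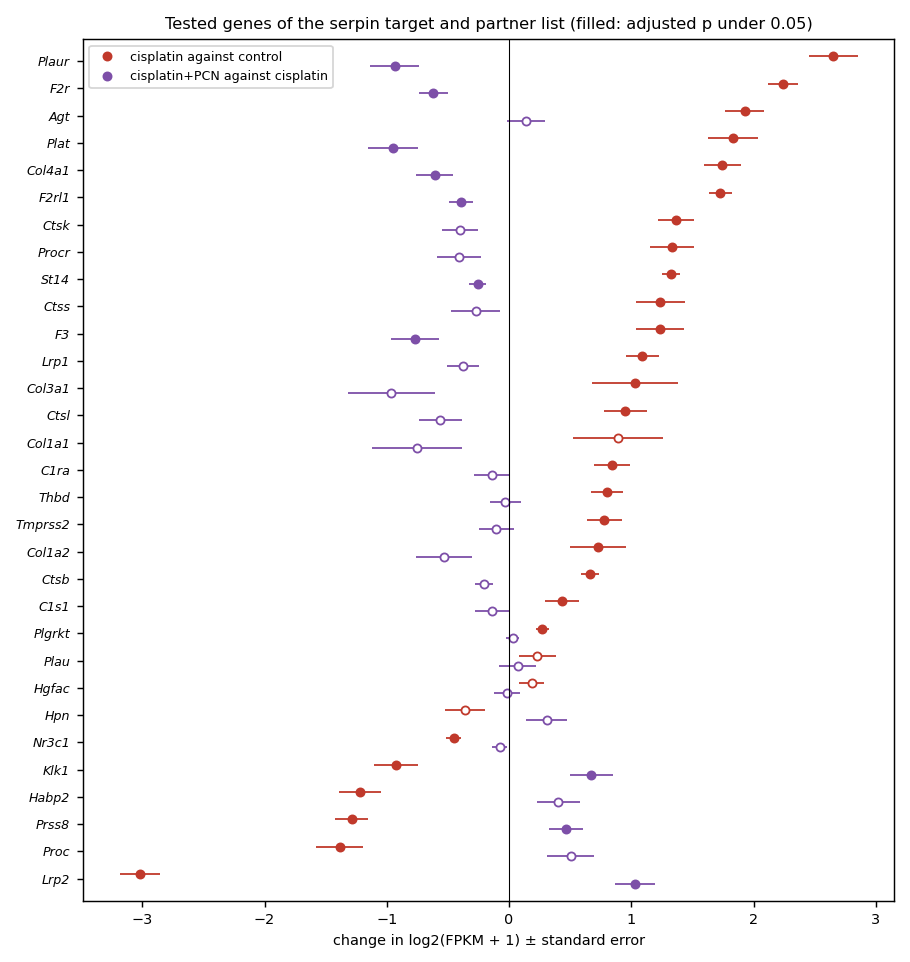
Change in log2(FPKM + 1) ± standard error (horizontal axis) of the 31 tested genes among serpin targets, receptors and clients (rows), with cisplatin against control and with cisplatin+PCN against cisplatin; filled points passed limma's test at an adjusted p under 0.05. Plaur has the largest rise with cisplatin (2.65) and Lrp2 the largest fall (-3.02), and for cisplatin+PCN against cisplatin 7 filled points are negative and 3 positive.

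The genes that serpins act on or bind were read from a list of 48 proteases, cofactors, receptors and clients, of which 31 were tested. With cisplatin 21 rose, 6 fell and 4 were not called, where 32.0% of all tested genes were higher and 31.9% lower. Plasminogen activation genes were among them: Plaur, the urokinase receptor, rose by 2.65 ± 0.20 from 2.77 to 22.5 FPKM, and Plat, tissue plasminogen activator, by 1.83 ± 0.20 from 11.3 to 43.1 FPKM, while Plau, urokinase, was not called (135 FPKM in control and 161 ± 35.2 with cisplatin). F2r, a thrombin receptor, rose by 2.24 ± 0.12, Col4a1, a basement membrane collagen, by 1.74 ± 0.15, and Agt, angiotensinogen, which has the serpin fold but no Serpin symbol, by 1.93 ± 0.16 from 24.5 to 95.9 FPKM. Lrp2, the endocytic receptor megalin of the proximal tubule, fell by 3.02 ± 0.16 from 123 to 14.4 FPKM. Proc, protein C, fell by 1.39, Prss8, the protease prostasin, by 1.29, Habp2, a plasma-type protease, by 1.22, and Klk1, tissue kallikrein, by 0.93 from 1671 to 901 FPKM.

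Transcripts of several classical targets were hardly present, which does not show how much of the proteins was there. Elane and Ctsg, the neutrophil elastase and cathepsin G inhibited by the Serpinb1a product, had at most 0.0846 FPKM in any library. Gzmb, the target of Serpinb9, lay between 0.0511 and 0.611 FPKM, and F11 was at 0 in every library. Plg, plasminogen, whose active form Serpinf2 inhibits, was at 0.159 ± 0.0307 FPKM in control and 0.0615 ± 0.0406 with cisplatin. Prtn3, the proteinase 3 that the Serpinb1a product inhibits, was under the minimum and not tested. It stood at 0.0818 ± 0.0265 FPKM in control, 0.628 ± 0.0904 with cisplatin and 0.395 ± 0.146 with cisplatin+PCN. PCN alone changed none of the 31 genes by the test (2 had an unadjusted p under 0.05). With cisplatin+PCN against cisplatin 7 were lower, namely Plat (-0.95), Plaur (-0.93), F3 (-0.77), F2r (-0.62), Col4a1 (-0.61), F2rl1 (-0.39) and St14 (-0.26), and Lrp2 (1.03), Klk1 (0.67) and Prss8 (0.47) were higher, where 7.61% of all tested genes were lower and 7.97% higher. None of these 10 calls was left when only the 2 groups were fitted.

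Promoter entries were matched for 52 members, 15 of them tested. TTCNNNGAA occurred in 3 of the 15 (Serpina1f, Serpina3g and Serpinb6a), where 9.55% of genes with a promoter entry hold it. TGANTCA, the AP-1 element, occurred in 5, 4 of which are the Serpina1a to Serpina1d copies and the fifth Serpinb8 (8.97% of genes). GGGA and CC spaced by 4 bases, of the kind NF-kB binds, occurred in Serpina3n, Serpinb6a, Serpinb8 and Serpinh1 (22.9% of genes). A strict form of the glucocorticoid element, AGAACA and TGTTCT spaced by 3 bases, occurred in none. So few genes hold it (0.0111%) that its absence here says nothing about these members. Motifs were searched on both strands of the 300 bases, and a match describes letters only.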

How the data were processed

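The table the authors deposited gives FPKM per gene and library. HISAT2 2.0.5, featureCounts 1.5.0-p3, DESeq2 1.16.1 and edgeR 3.18.1 are named, without settings, per the submitters' processing notes. The notes name mm8, but all 61 members have the coordinates of GENCODE M21, so positions are read as GRCm38. Every nonzero value gave whole reads (100% within 0.001 read). The library total that the values imply was 0.952 to 1.11 times the reads assigned to genes, so the deposited FPKM were not scaled to assigned reads. Rescaling to recovered reads, used below as an alternative, does scale to them. At 1 FPKM a library held 18.7 to 27.2 reads per kilobase of gene.

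Groups came from the library titles. The test was limma 3.58.1 (R 4.3.3, trended prior) on log2(FPKM + 1), which understates changes of low genes, for the 13540 genes with at least 1 FPKM in at least 3 of 12 libraries. It fitted 4 group means with 1 spread per gene shared by all groups. Benjamini-Hochberg adjustment was over all these genes in each of 6 comparisons, two-sided, called at an adjusted p under 0.05. The median SD within groups (log2) was 0.0861 in control, 0.0755 with PCN, 0.14 with cisplatin and 0.129 with cisplatin+PCN. The shared spread can thus understate the error of cisplatin+PCN against cisplatin and overstate that of PCN against control. Replicates of a group differed beyond counting noise (chi-square 4.97 to 78.7 per gene). An exact permutation of 3 against 3 libraries cannot go below 0.1 and was not used. Alternatives were pseudocounts of 0.1 and 0.5, no minimum, a mean FPKM of at least 5, median-of-ratios, quantile and recovered-read scalings (the last added after seeing the data), only the groups compared, a replicate block, leaving out each library, and limma-voom on recovered reads. Median-of-ratios factors were 1.00728 in all 12 libraries, so that scaling could hardly move a call and is no separate check. The limma fit was tested on simulated data.

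Members with a group mean of at least 10 FPKM, or called in cisplatin+PCN against cisplatin, in PCN against control or in the interaction, are given by library; 1 tested member is counted but not reported here. Of the target list, the 5 largest called cisplatin changes each way are named, and all called for cisplatin+PCN against cisplatin; others named from it were chosen after their values were seen. The members and lists were chosen with earlier results of these data known.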

Additional observations from a re-analysis of the deposited data

How the results depend on the processing

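For cisplatin against control (14 members called, 27 of the target list), cisplatin+PCN against PCN (15 and 21), cisplatin+PCN against control (15 and 21) and PCN against control (0 and 0), counts stayed within 1.5 times the reported ones under all 22 alternatives. Of these alternatives, median-of-ratios scaling left the values almost unchanged. For cisplatin+PCN against cisplatin, 5 members were called, 0 in the fit of only the groups compared and 3 after rescaling to recovered reads; leaving out 1 library gave 3 to 9. Of the target list 10 were called there, 4 with no minimum and 0 with only the groups compared; leaving out 1 library gave 3 to 16. The interaction (0 members, 0 of the list) gave 1 member with a mean FPKM of at least 5, and leaving out 1 library gave 0 to 5 members and 0 to 3 of the list. Shares of all tested genes were not taken under the alternatives. Of the alternative values for single genes, 66 lost a call, 36 gained one and none reversed, and 2464, called or not, kept their side of the threshold. With cisplatin against control Serpina1d gained a call under quantile scaling (limma adjusted p = 0.0159). With a replicate block the Serpina1b call for cisplatin+PCN against PCN was lost (0.59, limma adjusted p = 0.0563). Not every pair of same-numbered libraries deviated together (r of -0.281 to 0.366 over 18 pairs, 4 above 0.1; differently numbered ones, -0.401 to 0.328 over 36 pairs, 4 above 0.1), so the numbers were not taken as pairs. Members near 1 FPKM rest on few reads.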

Other observations

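A further 7 rows with a Serpin symbol are not protein-coding and were left out of the family. Serpina3h, a transcribed pseudogene between Serpina3g and Serpina3i, had 38 reads in all 12 libraries together, Serpinb10 had 19, and the other 5 had at most 6 each.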
